A study of Mus musculus with 15 samples.

Results

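Rosiglitazone, given for 3 days to adipocytes that had already been differentiated in culture, was compared with vehicle across all genes of the count table that passed an expression filter. The 3 rosiglitazone libraries (labelled Rosi 3D and called Rosi3D here) were set against the 3 vehicle libraries. Of the 24421 genes in the table, 14421 passed the filter and were tested, 4584 had no count in any library, and the 10000 left out include these. All libraries came from a single cell line, MAP, made from mouse adipocyte progenitors by immortalization. After confluence, every group, vehicle included, was differentiated for 2 days with insulin, 500 uM isobutylmethylxanthine, 1 uM dexamethasone and 1 uM rosiglitazone, and then for 2 days with insulin and 1 uM rosiglitazone. Treatment began at day 7 to 8 of differentiation. The vehicle cells had therefore met rosiglitazone earlier, and the comparison is between a later 3-day exposure and vehicle. The series holds 15 libraries in 5 groups of 3, the others being forskolin, an activator of adenylyl cyclase, for 4 h, 1 day or 3 days. Of these, the forskolin group at 3 days (FSK3D) is used for comparison because it shares the treatment time. Neither the treatment doses nor the harvest time of the vehicle cells is stated in the sources used. If vehicle and treated cells were harvested at different times, treatment and time in culture cannot be told apart. Whether the 3 libraries of a group are separate cultures is not stated, so p-values reflect the spread among these libraries alone, and that spread may be technical.

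Rosiglitazone is a thiazolidinedione that binds and activates PPAR gamma, the nuclear receptor that directs adipocyte formation. PPAR gamma pairs with a retinoid X receptor (RXR) and binds DNA at direct repeats of a short hexamer separated by a single base. Its known target genes take up, bind, store and burn fatty acids, and in white adipocytes thiazolidinediones are known to raise genes of brown fat, a change often called browning.

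Sequencing depth ranged from 26388586 to 31089519 counts in the vehicle libraries, from 20984580 to 56282582 in Rosi3D and from 14056200 to 31079564 in FSK3D. The precursor of ribosomal RNA, Rn45s, took 8.53% ± 0.038 (SD, n = 3) of the counts in vehicle and 6.63% ± 0.53 in Rosi3D. The adipocyte label held: 22 of 22 mature adipocyte genes were tested, and their summed level was 17281 to 19607 CPM, a count scaled to library size, in vehicle and 33606 to 35047 CPM in Rosi3D. The 24 genes listed for adipocyte progenitors summed to 1379 to 1480 CPM in vehicle and 729 to 840 CPM in Rosi3D. Markers of the other cell types listed were lower. The 10 macrophage markers summed to 4.69 to 5.06 CPM in vehicle and 3.08 to 4.40 CPM in Rosi3D with Fcgr1 and C1qa at 0, and the 8 lymphocyte markers stayed under 1 CPM. The 8 endothelial markers summed to 11.5 to 14.97 CPM in vehicle and 18.3 to 21.3 CPM in Rosi3D, with Emcn at 0. Of the 5 tested, Egfl7 and Pecam1 rose, Egfl7 from between 2.83 and 5.22 CPM to between 13.6 and 16.8 CPM, and Kdr, Tek and Vwf fell by at least 2-fold. Some 1.79% of the exon bases of Egfl7 overlap Agpat2 on the other strand, a gene that rose from 308 to 1475 CPM. Whether reads of Agpat2 were counted for Egfl7 was not tested. Of the 10 skeletal muscle markers, Myod1, Myf5, Myf6, Myh1, Myh4 and Ckm were at 0 in all 6 libraries, and the sum of 4.00 to 4.48 CPM in vehicle and 29.5 to 31.1 CPM in Rosi3D was almost all Acta1. The 6 mesothelial markers summed to 91.5 to 96.7 CPM in vehicle and 31.2 to 35.8 CPM in Rosi3D, mostly Krt19, with Wt1 at 0. The 8 cartilage and bone markers summed to 61.2 to 66.6 CPM in vehicle and 29.5 to 31.2 CPM in Rosi3D, mostly Runx2, with Ibsp at 0. The 8 Schwann and neural markers summed to 16.0 to 17.5 CPM in vehicle and 17.9 to 20.3 CPM in Rosi3D, with none at 0 in all 6 libraries.

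Genes were called at a Benjamini-Hochberg adjusted p under 0.05 from edgeR's quasi-likelihood test, the source of every adjusted p given here. Rosi3D was higher than vehicle for 4123 genes, 28.6% of those tested, and lower for 4617, or 32.0%. With a change of at least 2-fold as well, 951 genes were higher (6.59%) and 1148 lower (7.96%). The biological coefficient of variation was 5.97%, so that small changes were called: the median size of a called change was 0.55 on the log2 scale. The 3 Rosi3D values did not overlap the 3 of vehicle for 66.3% of the genes. Because 60.6% of all genes were called, each gene group below is given with its counts and its median log2 fold change, beside the median of -0.01 over all tested genes. The lists were chosen with earlier results of these data known, so their counts are descriptive and not a test. Some genes belong to several lists, such as Acaa1b to the PPAR target and peroxisome lists, so the list results are not independent of each other. Genes of fatty acid handling, fatty acid oxidation and respiration lay mostly above vehicle. Those of the progenitor state, contractile cytoskeleton, matrix and cell cycle lay mostly below.

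**Figure D1:**
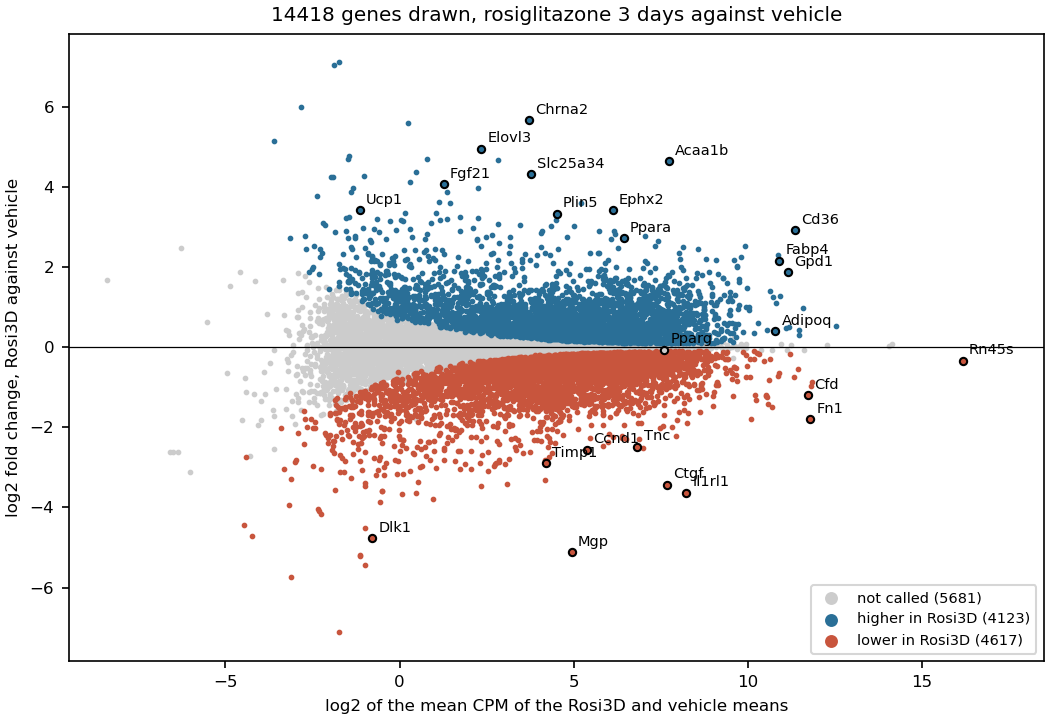
Each point is a tested gene; the horizontal axis is the log2 of the mean of the 2 group means in CPM and the vertical axis the log2 fold change of Rosi3D against vehicle. Blue points were called higher (4123), red points lower (4617) and grey points not called; 3 genes at 0 in all 6 libraries are not drawn, and Chrna2, Acaa1b and Cd36 lie far above the line at 0 while Mgp and Il1rl1 lie far below it.

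**Figure D2:**
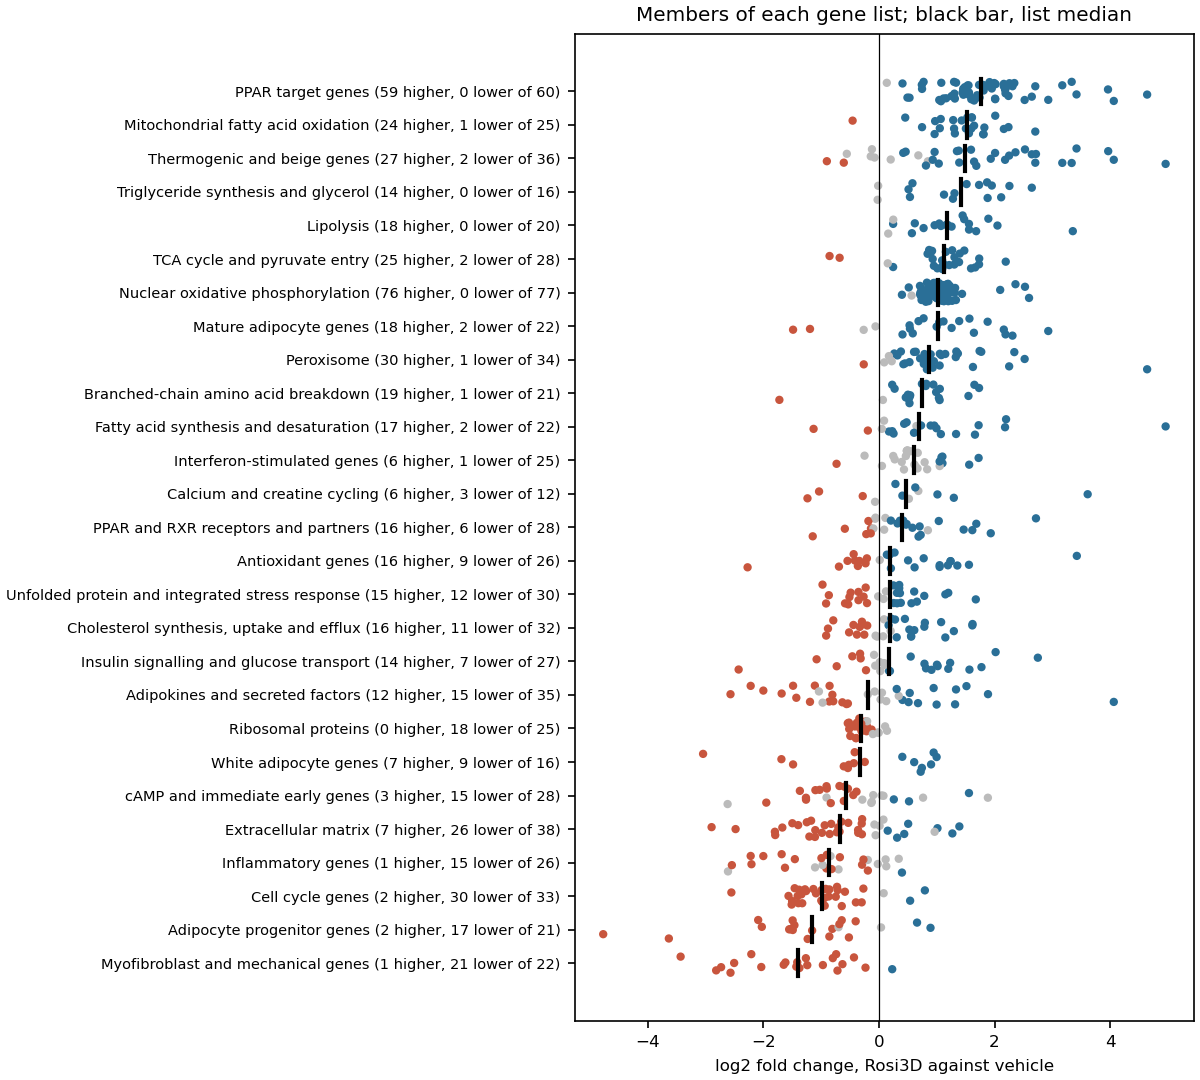
Each point is a tested member of a gene list, placed by its log2 fold change of Rosi3D against vehicle (horizontal axis), blue if called higher, red if called lower and grey if not called; points are spread vertically at random within a list and the black bar is the list median. Lists are ordered by their median, from myofibroblast genes (-1.40) to PPAR target genes (1.77).

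Of the PPAR receptors, the one that binds the drug was not called and another rose. Pparg (chr6:115360951-115490399 in GRCm38, plus strand) was at 185, 209 and 197 CPM in the vehicle libraries and at 183, 190 and 195 CPM in Rosi3D. The ranges overlapped and the log2 difference of -0.06 ± 0.071 (SE, n = 3 libraries a group) was not called (adjusted p = 0.487). Ppara (chr15:85734983-85802819, plus strand), the related receptor that drives fatty acid oxidation in liver, was at 21.5, 23.3 and 23.9 CPM in vehicle and at 151, 148 and 153 CPM in Rosi3D, a log2 fold change of 2.72 ± 0.075 (adjusted p = 1.17e-24). Per kilobase of gene length, the level of Ppara went from 3.04 to 20.0 CPM per kb, still below the 81.5 CPM per kb of Pparg in Rosi3D. Rxra, the partner of PPAR gamma, fell by 0.14 on the log2 scale (adjusted p = 0.00911), and Ppard, the third PPAR, fell by 0.18 (adjusted p = 0.0368). These small calls are fragile: Rxra was not called without vehicle library S1 (adjusted p = 0.0984) or without Rosi3D library S13 (0.0584) or S14 (0.0545). Ppard was not called when any 1 of the 6 libraries was left out (adjusted p from 0.0526 to 0.238), nor with DESeq2, RLE scaling, halved counts, thinned libraries or either other filter on low counts (0.0566 to 0.0723).

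Of the 28 receptors, coactivators, corepressors and adipogenic factors of the PPAR and RXR list, all tested, 16 rose and 6 fell, with a median log2 fold change of 0.39. The coactivators of mitochondrial biogenesis stood at the top after Ppara. Ppargc1a (PGC-1 alpha) rose from 31.1, 31.9 and 31.8 CPM to 104, 95.9 and 105 CPM, a log2 fold change of 1.69 ± 0.078 (adjusted p = 6.81e-17). Its relative Ppargc1b rose from 24.8 ± 2.57 to 94.8 ± 6.31 CPM (mean ± SD, n = 3), or by 1.94 on the log2 scale (adjusted p = 1.27e-14). Nr1h3, the oxysterol receptor LXR alpha, rose by 1.62 (adjusted p = 2.56e-12). The adipogenic factor Cebpd fell from 10.9 ± 1.45 to 4.90 ± 0.246 CPM, by 1.15 on the log2 scale (adjusted p = 4.87e-10); some of its exon bases overlap Spidr on the other strand. The acetyltransferase Crebbp fell by 0.22 (adjusted p = 0.00011). Prdm16, a regulator of brown fat identity, was at 0.247, 1.05 and 0.0734 CPM in vehicle and 1.00, 0.651 and 0.779 CPM in Rosi3D, with overlapping ranges. It was not called (log2 fold change 0.85 ± 0.62, adjusted p = 0.251), but was called without vehicle library S2, with a log2 fold change of 2.31 and an adjusted p of 0.00435.

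Known PPAR target genes were almost uniformly higher. Of 65 in the list, 60 were tested; 59 rose, 53 of them by at least 2-fold, and none fell, with a median log2 fold change of 1.77. Hilpda, an inhibitor of lipolysis, was the member not called (0.14, adjusted p = 0.475). Gpihbp1, Slc27a2, Cyp4a10, Hsd17b13 and Cyp2b10 were too low to be tested. Summed, the 60 tested targets took 1.69% of normalized counts in vehicle and 4.72% in Rosi3D.

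Among uptake and binding genes, 9 of 9 tested members rose. Cd36 (chr5:17781690-17888801, minus strand), the fatty acid translocase of the plasma membrane, was at 534, 677 and 619 CPM in vehicle and at 4501, 4533 and 4917 CPM in Rosi3D. Every Rosi3D library lay far above every vehicle library, and the log2 fold change was 2.93 ± 0.084 (adjusted p = 1.62e-14). Fabp4 (chr3:10204088-10208576, minus strand), the fatty acid binding protein of adipocytes, went from 666, 756 and 684 CPM to 3029, 2816 and 3575 CPM, or 2.16 ± 0.12 (adjusted p = 1.92e-08). Lpl, the lipase that frees fatty acids from circulating lipoproteins, rose less, from 4866 ± 361 to 7022 ± 69.6 CPM (0.53, adjusted p = 3.9e-10). Angptl4, a secreted inhibitor of that lipase, rose from 201 ± 3.57 to 745 ± 17.1 CPM (1.89, adjusted p = 2.8e-20). Acsl1, which activates long-chain fatty acids with coenzyme A, rose from 623 ± 60.8 to 3090 ± 120 CPM (2.31, adjusted p = 9.41e-16).

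Of 11 tested lipid droplet genes among the targets, 10 rose. Cidea, a droplet protein enriched in brown fat, was at 3.77, 4.89 and 4.92 CPM in vehicle and at 38.1, 34.9 and 49.2 CPM in Rosi3D (3.17 ± 0.20, adjusted p = 8.89e-10). Its relative Cidec, which enlarges droplets in white adipocytes, rose from 278 to 1270 CPM (2.19, adjusted p = 1.3e-14). Plin5, a perilipin of oxidative tissues, rose from 4.15 ± 1.39 to 41.5 ± 7.10 CPM (3.34, adjusted p = 7.31e-13). The 4 glycerol genes all rose by at least 2-fold. Gyk, the mouse glycerol kinase, went from 45.1, 48.6 and 49.4 CPM to 291, 266 and 339 CPM, a log2 fold change of 2.65 ± 0.067 (adjusted p = 1.5e-21). Pck1, which makes glycerol precursors from pyruvate, rose from 16.8 ± 2.12 to 65.2 ± 1.75 CPM (1.95, adjusted p = 1.82e-21).

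**Figure D3:**
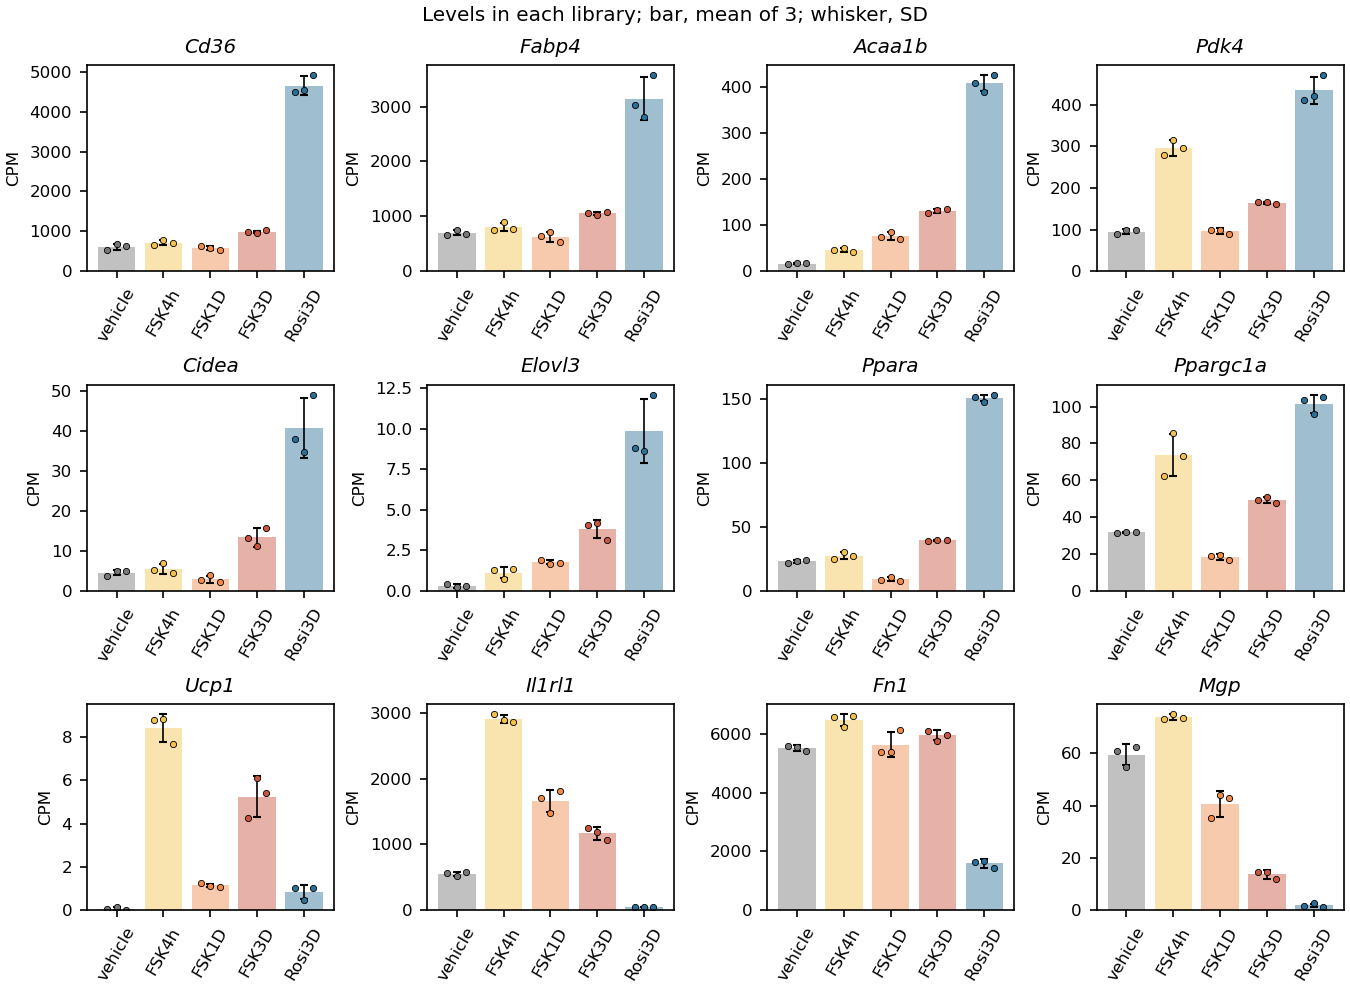
Levels in CPM (vertical axes, linear from 0) of 12 genes in all 5 groups; bars are means of 3 libraries, whiskers SD and points single libraries. In Rosi3D the 3 Cd36 values lie between 4501 and 4917 CPM, above every other library, whereas Ucp1 is highest in forskolin-treated cells and Il1rl1, Fn1 and Mgp are lowest in Rosi3D.

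The 250 bases before the start sites of RefSeq were searched, with 50 bases after them, for the hexamer repeat that PPAR and RXR pairs are known to bind. The motif searched was AGGNCANAGGNCA, also on the other strand as TGNCCTNTGNCCT. In the RefSeq tables of GRCm38.p6, 11309 of the 14421 tested genes had such a window. The motif was found in 36 of them (0.318%), in 8 of 721 genes higher by at least 2-fold (1.11%), in 2 of 870 genes lower by at least 2-fold (0.23%), and in 125 of all 32851 promoters in the table (0.381%). It was found in 0 of the 46 known PPAR targets with a window. The share over all promoters in the table is per promoter and the other shares are per gene. Apol7b and Apol7e, both among the 8 genes, have nearly the same sequence in their windows, so their matches are not independent. A match describes letters in a window and not a bound site. Of the 8 genes with a match that rose by at least 2-fold, 3 are shown, chosen after their values were seen, as examples of how the repeat is placed; each sequence runs 5' to 3' on the gene's strand, ends at the base before the start site and has the motif in capitals.
Isca1: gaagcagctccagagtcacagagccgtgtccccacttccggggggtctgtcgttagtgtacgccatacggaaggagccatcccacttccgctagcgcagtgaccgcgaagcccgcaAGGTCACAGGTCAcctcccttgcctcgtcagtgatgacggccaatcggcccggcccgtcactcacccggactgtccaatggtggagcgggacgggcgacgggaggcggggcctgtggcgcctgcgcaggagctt
Pbld1: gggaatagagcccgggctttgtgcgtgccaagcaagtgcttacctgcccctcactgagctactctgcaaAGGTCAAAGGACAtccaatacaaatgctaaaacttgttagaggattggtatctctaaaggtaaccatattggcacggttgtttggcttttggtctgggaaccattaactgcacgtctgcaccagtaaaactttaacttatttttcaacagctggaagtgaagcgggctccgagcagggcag
Apol7b: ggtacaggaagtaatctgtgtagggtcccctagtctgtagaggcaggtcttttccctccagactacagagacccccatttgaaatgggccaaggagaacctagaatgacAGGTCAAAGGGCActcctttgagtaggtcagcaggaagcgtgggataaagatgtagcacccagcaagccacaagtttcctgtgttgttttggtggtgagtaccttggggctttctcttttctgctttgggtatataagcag
The Isca1 window is chr13:59769790-59770039 (minus strand), with the motif from -134 to -122 relative to the start site. The Pbld1 window is chr10:63061339-63061588 (plus strand), with the motif from -181 to -169. The Apol7b window is chr15:77447461-77447710 (minus strand), with the motif from -141 to -129. Isca1, which inserts iron-sulfur clusters into mitochondrial enzymes, was at 27.7, 29.0 and 28.2 CPM in vehicle and at 61.5, 55.5 and 67.2 CPM in Rosi3D, a log2 fold change of 1.12 ± 0.076 (adjusted p = 1.93e-14). Pbld1 rose from 0.269 ± 0.147 to 1.01 ± 0.546 CPM (1.88, adjusted p = 0.00146). Apol7b, of the apolipoprotein L family, rose from 0.519 ± 0.0954 to 2.42 ± 0.383 CPM (2.20, adjusted p = 2.08e-07); Apol7e, of the same family, also carries the motif, and reads may be split between these genes.

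Genes of triglyceride synthesis rose with the droplet genes. Of 18, 16 were tested and 14 rose, 11 by at least 2-fold, with a median of 1.41. Agpat2, the acyltransferase that makes phosphatidic acid and whose loss causes lipodystrophy, was at 277, 337 and 311 CPM in vehicle and at 1466, 1415 and 1545 CPM in Rosi3D (2.26 ± 0.060, adjusted p = 5.41e-22). Gpam (-0.02, adjusted p = 0.687) and Lpin2 (-0.01, adjusted p = 0.871) were not called.

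Lipolysis genes rose as well, 18 of 20 with none lower and a median of 1.18. The list holds genes that restrain lipolysis, and those rose too. Adora1, the adenosine receptor that inhibits adenylyl cyclase, rose from 27.9 to 89.6 CPM (1.68, adjusted p = 6.9e-19); 20.1% of its exon bases overlap Mybph on the other strand. Pde3b, the phosphodiesterase through which insulin suppresses lipolysis, rose from 172 to 506 CPM (1.56, adjusted p = 3.2e-09). Adrb1, a beta-adrenergic receptor, rose from 0.342 to 1.45 CPM (2.05, adjusted p = 0.000103; 2.82 without vehicle library S1). Ces1f, a carboxylesterase, rose from 0.360 to 3.77 CPM (3.36, adjusted p = 8.3e-11), although reads of near-identical Ces1 genes may be split.

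Of 25 tested genes of mitochondrial fatty acid oxidation and ketone metabolism, 24 rose, 20 of them by at least 2-fold, with a median of 1.53. All 6 genes of the carnitine shuttle and all 15 of beta-oxidation rose. Acaa2 rose from 107 to 432 CPM (2.01, adjusted p = 3.5e-26) and Hadhb, a subunit of the trifunctional protein, from 48.1 to 215 CPM (2.16, adjusted p = 1.7e-18). Oxct1, which uses ketone bodies rather than making them, was the member that fell (by 0.46 on the log2 scale, adjusted p = 1.3e-11).

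Peroxisomal genes followed, with 30 of 34 higher and 1 lower (median 0.86). Acaa1b (chr9:119148023-119157093, minus strand), a thiolase of peroxisomal beta-oxidation, was at 15.1, 17.0 and 17.1 CPM in vehicle and at 409, 391 and 427 CPM in Rosi3D (log2 fold change 4.64 ± 0.076, adjusted p = 4.34e-26). Its near-identical copy Acaa1a rose by 1.15, from 73.2 to 162 CPM, and reads may be split between the copies. Some 11.4% of the exon bases of Acaa1b overlap Dlec1 on the other strand. Ehhadh rose from 14.6 to 74.1 CPM (2.34, adjusted p = 2.81e-10) and Pex16, a membrane biogenesis factor, from 25.8 to 88.0 CPM (1.77, adjusted p = 1.5e-17).

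Of 28 genes of the TCA cycle and pyruvate entry, 25 rose and 2 fell (median 1.12). Idh3a, a subunit of the NAD-dependent isocitrate dehydrogenase, went from 291 ± 26.4 to 970 ± 45.8 CPM (1.74, adjusted p = 4.01e-21), and Dlat, a core subunit of pyruvate dehydrogenase, from 138 to 457 CPM (1.73, adjusted p = 6.1e-20). Kinases that switch pyruvate dehydrogenase off were split. Pdk4 was at 88.7, 98.1 and 98.3 CPM in vehicle and at 412, 421 and 472 CPM in Rosi3D (2.19 ± 0.058, adjusted p = 2.37e-24), and Pdk2 rose by 1.66 (adjusted p = 3e-19). Pdk3 fell by 0.86 (adjusted p = 5.5e-13), and so did Pdp1, a phosphatase that switches the complex on, by 0.68 (adjusted p = 7.9e-09).

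Nuclear genes of oxidative phosphorylation rose almost without exception: 76 of 77 tested, none lower, with a median of 1.02, close to a doubling. Complex I had 35 of 35 higher, complex II 4 of 4, complex III 9 of 9, complex IV with cytochrome c 14 of 14 and complex V 14 of 15. Atp5l was the member not called (0.56, adjusted p = 0.0732). Their summed level went from 7769 ± 353 to 15823 ± 571 CPM. Cycs, cytochrome c, was at 20.7, 24.3 and 22.8 CPM in vehicle and at 96.1, 97.1 and 97.2 CPM in Rosi3D (2.10 ± 0.061, adjusted p = 1.93e-24).

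The subunit forms known from heart, muscle and brown fat had larger log2 fold changes than their common counterparts, which were named after their values were seen. Cox7a1 rose by 2.53 ± 0.18 on the log2 scale and Cox7a2 by 0.98 ± 0.058. Cox6a2 rose by 2.60 ± 0.19 and Cox6a1 by 1.03 ± 0.076. Cox8b rose by 2.36 ± 0.15 and Cox8a by 1.14 ± 0.10. The common forms stayed more abundant per kilobase: in Rosi3D, Cox7a1 reached 42.1 CPM per kb and Cox7a2 265 CPM per kb. For Cox6a2 and Cox6a1 these levels were 19.0 and 322 CPM per kb, and for Cox8b and Cox8a 40.6 and 424 CPM per kb. The muscle carnitine palmitoyltransferase Cpt1b rose by 2.71 ± 0.48 and the liver form Cpt1a by 0.75 ± 0.053, yet Cpt1b remained at 0.464 CPM per kb in Rosi3D against 37.8 CPM per kb for Cpt1a. Cpt1b rests on 18 counts in the vehicle libraries together and 131 in Rosi3D. The ratio of halved counts was 6.35 (95% interval 3.15 to 14.5, counting error only). Its mean was 1.34 CPM in Rosi3D, 0.197 CPM in vehicle and lower still in the forskolin groups. It could therefore pass the expression filter through Rosi3D alone, which favours a rise. The difference in change between the members of a pair was not tested.

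**Figure D4:**
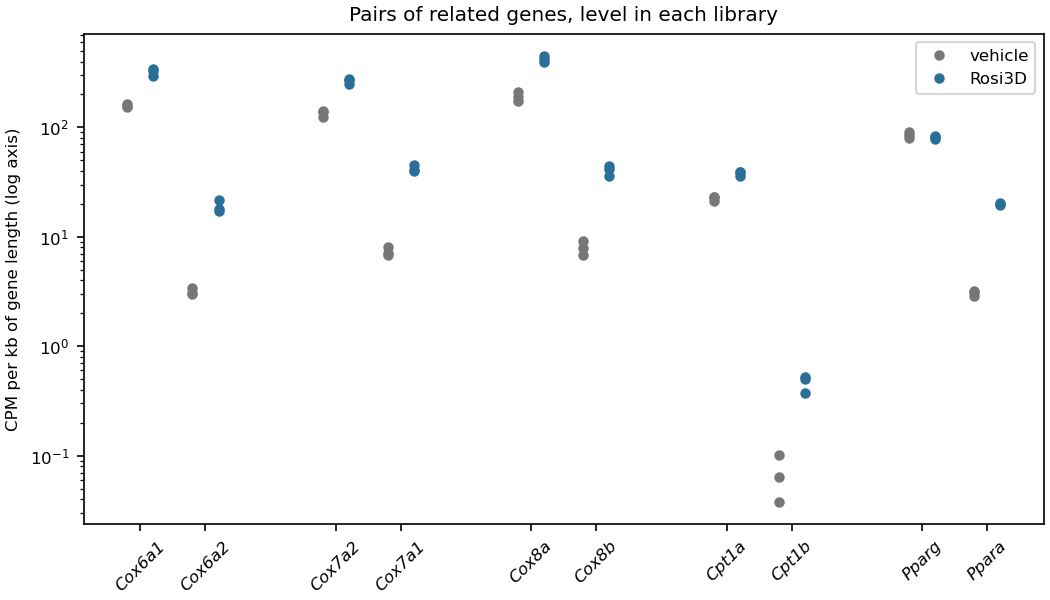
Level per kilobase of gene length (vertical axis, log scale) of 5 pairs of related genes in each vehicle library (grey) and each Rosi3D library (blue). In Rosi3D Cox7a1 averages 42.1 CPM per kb and Cox7a2 265 CPM per kb, and the gap between the grey and blue points is wider for Cox7a1.

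Thermogenic and beige genes were mostly higher, 27 of 36 tested with 2 lower and a median of 1.49. Over the settings run this median ranged from 1.05 to 1.69. Members near 0 in vehicle, such as Ucp1, could pass the expression filter through the treated groups, which favours rises among the low members tested. Dio2, Tbx1, Pm20d1, Epsti1, Ckmt1, Ckmt2 and Gatm were too low to test. The uncoupling gene itself was at a low level in both groups. Ucp1 (chr8:83290352-83298452, plus strand), which uncouples respiration in brown fat, was at 0.0617, 0.164 and 0 CPM in vehicle and at 1.00, 0.465 and 1.01 CPM in Rosi3D. This rests on 7 counts in the vehicle libraries together and 93 in Rosi3D. The ratio from counts, halved because both mates of a pair may have been counted, was 9.96 (95% interval 3.64 to 38.1, counting error only). The log2 fold change was 3.42 ± 0.48 (adjusted p = 1.61e-07), and 4.55 without vehicle library S2. Elovl3 (chr19:46131897-46135694, plus strand), a fatty acid elongase of brown fat, was at 0.432, 0.197 and 0.294 CPM in vehicle and at 8.78, 8.60 and 12.1 CPM in Rosi3D (4.96 ± 0.26, adjusted p = 9.81e-18). Otop1, a proton channel, rose from 0.550 to 8.90 CPM (3.97, adjusted p = 2.35e-15). Among the regulators, Irf4 fell by 0.90 (adjusted p = 4.5e-13) and Nr4a1 by 0.61 (adjusted p = 1.3e-05).

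White adipocyte genes showed no common direction, with 7 of 16 higher, 9 lower and a median of -0.33. Wfdc21 fell from 7.40 ± 0.813 to 0.936 ± 0.140 CPM (by 3.04 on the log2 scale, adjusted p = 8.5e-17). Resistin, Retn, rose from 210 ± 17.8 to 419 ± 10.8 CPM (1.00, adjusted p = 3.92e-09). Leptin, Lep, was low throughout, at 0.370, 0.657 and 0.440 CPM in vehicle and 0.106, 0.232 and 0.234 CPM in Rosi3D. Its call (-1.49 ± 0.64, adjusted p = 0.0456) was lost when any of these 6 libraries was left out, with adjusted p from 0.0546 to 0.246, and also with DESeq2 (0.15) and with no filter on low counts (0.172).

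Calcium and creatine cycling, the routes of heat production known to need no uncoupling protein, had 6 of 12 tested genes higher and 3 lower (median 0.46). Their summed level did not rise, at 963 ± 2.88 CPM in vehicle and 953 ± 1.59 CPM in Rosi3D. The calls of Pln, higher, and Gamt, lower, were each lost in some alternative settings. Atp2a3, a calcium pump of the endoplasmic reticulum, was at 4.54, 6.66 and 5.76 CPM in vehicle and at 68.6, 65.1 and 73.1 CPM in Rosi3D (3.61 ± 0.12, adjusted p = 4.67e-18). Its paralog Atp2a2 was not called (-0.07, adjusted p = 0.136). On the creatine side the transporter Slc6a8 fell by 1.24 (adjusted p = 1.9e-19) and the phosphatase Alpl by 1.04 (adjusted p = 2.06e-16). Phospho1 rose by 1.30, but 89.6% of its exon bases overlap Zfp652.

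In fatty acid synthesis and desaturation 17 of 22 genes rose and 2 fell (median 0.69), while the most abundant members did not pass the test. Fasn, the synthase itself, was at 4856 ± 409 CPM in vehicle and 5027 ± 165 CPM in Rosi3D (0.05, adjusted p = 0.571), and Scd1, the main desaturase, at 17561 ± 1294 and 18672 ± 106 CPM (0.09, adjusted p = 0.137). Acacb, whose product malonyl-CoA restrains entry of fatty acids into mitochondria, rose from 159 to 732 CPM (2.20, adjusted p = 2.99e-09), and Mlycd, which removes malonyl-CoA, from 27.9 to 92.0 CPM (1.73, adjusted p = 2.19e-20). Hsd17b12, a reductase of fatty acid elongation, rose by 2.18 (adjusted p = 1.4e-27), and the elongase Elovl6 fell by 1.13 (adjusted p = 2.5e-17).

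Cholesterol genes were mixed, with 16 of 32 higher and 11 lower (median 0.18). Insig1, which holds back the sterol-sensing SREBP factors, was at 387, 465 and 418 CPM in vehicle and at 1320, 1315 and 1270 CPM in Rosi3D (1.62 ± 0.052, adjusted p = 5.52e-23). Lss, which closes the sterol ring, rose by 1.15 (adjusted p = 5.09e-19). The exporter Abcg1 rose by 1.30 (adjusted p = 5.7e-15) and Soat1, which esterifies cholesterol, fell by 0.91 (adjusted p = 4.7e-16). Of 21 genes of branched-chain amino acid breakdown, 19 rose and 1 fell (median 0.74): Bckdhb, a subunit of the branched-chain ketoacid dehydrogenase, rose by 1.73 (adjusted p = 1.91e-20), and the cytosolic transaminase Bcat1 fell by 1.72 (adjusted p = 4.4e-20).

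Insulin signalling and glucose transport genes had 14 of 27 higher and 7 lower (median 0.17). Slc2a4, the insulin-sensitive glucose transporter, was at 84.6, 108 and 98.1 CPM in vehicle and at 280, 270 and 312 CPM in Rosi3D (1.57 ± 0.14, adjusted p = 1.33e-06). Gys2, a glycogen synthase, rose from 1.43 to 9.75 CPM (2.75, adjusted p = 1.2e-14). Foxc2 fell by 2.43 (adjusted p = 3.2e-13) and Akt1 by 0.73 (adjusted p = 6.4e-16). Irs1 was not called (0.02, adjusted p = 0.706).

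Secreted factors were split, with 12 of 35 tested higher, 15 lower and a median of -0.19. Adiponectin, Adipoq, rose modestly, from 1450, 1626 and 1508 CPM to 2032, 2028 and 2022 CPM (0.41 ± 0.046, adjusted p = 1.82e-09). Fgf21 (chr7:45613886-45615490, minus strand), a metabolic hormone, was at 0.0617, 0.460 and 0.294 CPM in vehicle and at 4.43, 5.02 and 4.20 CPM in Rosi3D (4.06 ± 0.33, adjusted p = 7e-13; 4.73 without vehicle library S2). Complement factor D (adipsin), Cfd, was abundant in both groups and fell, from 4476, 4860 and 4756 CPM to 2164, 2137 and 1860 CPM, by 1.19 ± 0.075 on the log2 scale (adjusted p = 1.14e-10). Haptoglobin, Hp, fell from 364 ± 30.2 to 90.9 ± 5.88 CPM, by 2.00 (adjusted p = 5.23e-07), and Inhba, a subunit of activin, by 2.57 (adjusted p = 3.91e-11).

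Among genes of at least 1 CPM in the higher group, the largest rises were led by Chrna2 (chr14:66135039-66152948, plus strand), a subunit of nicotinic acetylcholine receptors. It was at 0.463, 0.722 and 0.294 CPM in vehicle and at 26.1, 26.8 and 23.9 CPM in Rosi3D, a log2 fold change of 5.67 ± 0.20 (adjusted p = 4.5e-22). The count ratio was 52.6 (95% interval 34.6 to 84.2). Genes near 0 in vehicle could enter this ranking through their level in treated cells alone, which favours large rises among low genes. Cyp2c70, a cytochrome P450, rose from 4 counts in the vehicle libraries together to 242 in Rosi3D, a ratio of 52.4 (14.2 to 438); its family holds close copies among which reads may be split. Arhgef37, a predicted guanine nucleotide exchange factor, rose from 0.530 to 13.7 CPM (4.68 ± 0.31, adjusted p = 8.1e-12; 5.42 without vehicle library S2). Slc25a34, of the mitochondrial carrier family, rose from 0.895, 1.64 and 1.39 CPM to 24.7, 25.1 and 28.4 CPM (4.32 ± 0.18, adjusted p = 8.01e-18). With Elovl3, Acaa1b, Fgf21 and Otop1, the 12 largest also held Slc22a14 (4.37), P2rx1 (4.12), Cd300lg (3.87) and Pkdrej (3.63), none above 5 CPM in the mean of Rosi3D. Outside these, Ephx2, a soluble epoxide hydrolase of the antioxidant list, rose from 11.9 ± 1.33 to 128 ± 4.48 CPM (3.42, adjusted p = 2.37e-27). The antioxidant list as a whole had 16 of 26 higher and 9 lower (median 0.20), with Gpx3 falling by 2.27 (adjusted p = 1.6e-19).

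By the same measure the largest fall was that of Mgp (chr6:136872435-136875823, minus strand), matrix Gla protein, an inhibitor of calcification. It was at 61.0, 54.9 and 62.6 CPM in vehicle and at 1.53, 2.56 and 1.32 CPM in Rosi3D, a log2 fold change of -5.12 ± 0.14 (adjusted p = 1.84e-19). Ctgf, a matricellular growth factor, fell from 374, 368 and 385 CPM to 37.9, 36.2 and 29.5 CPM, by 3.43 ± 0.14 on the log2 scale (adjusted p = 9.95e-10). Il1rl1 (chr1:40429570-40465415, plus strand), the receptor of interleukin 33, fell from 567, 518 and 577 CPM to 42.1, 42.6 and 50.2 CPM, by 3.63 ± 0.088 (adjusted p = 4.76e-16). Its ligand Il33 fell from 2.63 ± 0.462 to 0.431 ± 0.0605 CPM, by 2.55 (adjusted p = 7.61e-11), and the interleukin 1 receptor antagonist Il1rn from 15.5 to 1.46 CPM, by 3.42 (adjusted p = 7.56e-16). Cemip, which depolymerizes hyaluronan, had a log2 fold change of -3.79, Tmem171 of -3.66, Pla2g5 of -3.59, Slc6a12 of -3.59 (-5.38 with libraries thinned to equal depth), Cd300lb of -3.48 and Fam180a of -3.86 (-4.75 without Rosi3D library S13); all but Cd300lb were below 0.3 CPM in the mean of Rosi3D.

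Genes of adipocyte progenitors were lower, 17 of 21 tested with 2 higher and a median of -1.16. In bulk RNA such as this, fewer cells of a type and less RNA per cell cannot be told apart. Dlk1, a surface protein of preadipocytes that blocks their differentiation, was at 1.30, 0.722 and 1.39 CPM in vehicle and at 0.0704, 0 and 0 CPM in Rosi3D, or 102 against 4 counts. The count ratio was 0.034 (95% interval 0.00401 to 0.129). Wnt10b, a Wnt ligand that inhibits adipogenesis, fell by 3.64 on the log2 scale (adjusted p = 1.99e-09), Cd24a by 2.09 (adjusted p = 1.6e-07) and Gata2 by 1.55 (adjusted p = 4.12e-09). The members that rose were Zfp423 (0.89, adjusted p = 1.5e-13), a regulator of preadipocyte commitment, and Wnt5a (0.66, adjusted p = 1.4e-07).

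Contractile and mechanically responsive genes fell together: 21 of 22 were lower and 1 higher, with a median of -1.40. Tagln fell from 34.2 ± 2.27 to 5.23 ± 0.598 CPM, by 2.73 (adjusted p = 4.19e-21). Ankrd1, a target of the mechanical regulator YAP, fell by 2.82 (adjusted p = 8.38e-16). Smooth muscle actin, Acta2, fell from 215, 210 and 218 CPM to 37.4, 39.8 and 36.2 CPM, by 2.51 (adjusted p = 1.38e-27), while skeletal actin, Acta1, whose sequence is nearly the same, rose from 4.00 to 29.9 CPM (2.90, adjusted p = 5.1e-20). Tgfbr1 was the member that rose (0.23, adjusted p = 0.000413).

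Of 38 matrix genes, 26 fell and 7 rose (median -0.67), and their summed level went from 40442 ± 451 to 28288 ± 1195 CPM. Collagens and their processing enzymes had 11 of 19 lower and 6 higher, other matrix genes 15 of 19 lower and 1 higher. Fibronectin, Fn1 (chr1:71585520-71653200, minus strand), was at 5590, 5552 and 5416 CPM in vehicle and at 1651, 1687 and 1432 CPM in Rosi3D, a fall of 1.80 ± 0.055 (adjusted p = 5.52e-23). Tnc fell by 2.48 (adjusted p = 2.16e-08), Fbln2 by 1.80 (adjusted p = 7.08e-12) and the protease inhibitor Timp1 by 2.90 (adjusted p = 2.87e-20). Col15a1, a basement membrane collagen, rose from 101 to 265 CPM (1.39, adjusted p = 7.9e-07), and Col3a1 from 695 to 1403 CPM (1.01, adjusted p = 1.7e-16).

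Inflammatory genes were lower in 15 of 26 tested and higher in 1 (median -0.87). Cxcl12, a chemokine of stromal cells, fell from 442, 390 and 392 CPM to 94.2, 95.9 and 72.0 CPM, by 2.22 ± 0.081 (adjusted p = 3.8e-14). Ptgs2, the inducible cyclooxygenase, fell from 137 ± 10.9 to 29.6 ± 0.864 CPM, by 2.21 (adjusted p = 1.02e-07), and Ccl2 by 1.68 (adjusted p = 4.96e-14). Nfkbia, the inhibitor of NF-kappa-B, rose by 0.40 (adjusted p = 2.3e-06). Il6 (0.13, adjusted p = 0.855) and Nos2 (-1.11, adjusted p = 0.423) were not called. The macrophage markers given above summed to no more than 5.06 CPM in any of the 6 libraries.

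Cell cycle genes were lower in 30 of 33, with 2 higher and a median of -0.98. Ccnd1, cyclin D1, fell from 68.8, 69.4 and 75.7 CPM to 11.8, 11.5 and 13.1 CPM, by 2.55 ± 0.097 (adjusted p = 3.29e-20). Its level in FSK3D was 10.8 ± 1.37 CPM, not called different from Rosi3D (log2 difference 0.15, adjusted p = 0.29). Summed, the cell cycle list was at 4730 ± 125 CPM in vehicle, 3247 ± 23.2 in FSK3D and 3001 ± 93.2 in Rosi3D. The mitotic genes Bub1b and Cdc20 fell by 1.57 and 1.51. Ccnd2 rose from 320 to 555 CPM (0.79, adjusted p = 7.56e-17), and so did Cdkn1a, the p21 inhibitor of cell cycle kinases (0.54, adjusted p = 2.28e-12).

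Of 25 ribosomal protein genes 18 were lower and none higher, with a median of -0.30; Rplp0 fell by 0.51 and Rpl4 by 0.54. Of 28 cAMP-responsive and immediate early genes 15 were lower and 3 higher (median -0.57). Egr3 fell by 1.95, Junb by 1.37 and Nr4a3 by 1.26; the last was not called without Rosi3D library S13 (adjusted p = 0.0859) or with libraries thinned to the smallest (adjusted p = 0.0854). Pde3b, Crem and Per1 were the members that rose. The unfolded protein and stress response list was divided, with 15 of 30 higher and 12 lower (median 0.19). The chaperone Dnajb9 rose by 1.68 (adjusted p = 1e-23) and Asns, a target of the stress factor ATF4, by 1.15 (adjusted p = 1.7e-16), whereas the lumenal folding proteins Pdia3 and Calr fell by 0.98 and 0.87.

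Interferon-stimulated genes varied between libraries of one group. Of 25 tested, 6 rose and 1 fell (median 0.61). Neither share was above that over all tested genes, 28.6% higher and 32.0% lower. Those that rose included Mx2 (1.72, adjusted p = 0.00296) and Irf7 (1.10, adjusted p = 0.0214). Irf7 was at 31.2, 20.0 and 22.6 CPM in vehicle and at 58.0, 62.0 and 38.1 CPM in Rosi3D, and was not called without vehicle library S2 or S3 or Rosi3D library S13 or S14 (adjusted p from 0.0598 to 0.072). The count of 6 became 2 without vehicle library S2 or S3 and 3 without Rosi3D library S13, and 14 when only the 6 libraries were fitted. Ifit2 fell by 0.73 (adjusted p = 0.00195).

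The direct comparison of Rosi3D with FSK3D, which uses no vehicle library but the same Rosi3D libraries, asked which levels differ between the treatments at 3 days. Over all genes Rosi3D was higher for 2978 (20.7%) and lower for 3238 (22.5%), or 43.1% in either direction. Of the 60 tested PPAR targets 51 were above FSK3D and 5 below (median 0.97), and of the 77 oxidative phosphorylation genes 75 were above and none below (median 0.56). FSK3D itself lay between vehicle and Rosi3D in the summed level of both lists. For the PPAR targets the sums were 16896 ± 1114 CPM in vehicle, 28230 ± 737 in FSK3D and 47238 ± 1567 in Rosi3D (mean ± SD, n = 3). For oxidative phosphorylation they were 7769 ± 353, 10754 ± 432 and 15823 ± 571 CPM. The difference of FSK3D from vehicle was not tested here. Of the 24 cholesterol synthesis genes 22 were above FSK3D and none below (median 0.65), whereas 12 were above and 9 below vehicle. Matrix genes were below FSK3D in 29 of 38 and inflammatory genes in 18 of 26. Branched-chain amino acid genes were above in 9 and below in 6 of 21. Cell cycle genes were below in 22 and above in 3 of 33. Of the 1148 genes at least 2-fold below vehicle, 731 were below FSK3D, 24 above and 393 not called. Of the 951 at least 2-fold above vehicle, 603 were above FSK3D, 46 below and 302 not called. Cemip and Cd300lb, among the largest falls against vehicle, were not called, at 0.262 ± 0.193 and 0.753 ± 0.306 CPM in FSK3D.

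Among genes changed at least 2-fold against vehicle, the largest difference above FSK3D was that of Tmem182, a membrane protein known from muscle. It was at 33.2, 33.2 and 43.5 CPM in Rosi3D, at 1.18, 0.548 and 0.477 CPM in FSK3D and at 3.80, 5.61 and 4.07 CPM in vehicle, so that the treatments lay on opposite sides of vehicle. The log2 difference from FSK3D was 5.62 ± 0.22 (adjusted p = 1.14e-17). Lrrc39, a sarcomere protein, showed the same order, at 127 ± 4.16 CPM in Rosi3D, 8.65 ± 1.43 in FSK3D and 17.8 ± 0.826 in vehicle (3.84 ± 0.10, adjusted p = 1.07e-23); 15.7% of its exon bases overlap Trmt13 on the other strand. Chrna2, at 2.09 ± 0.361 CPM in FSK3D, differed by 3.59 ± 0.17 (adjusted p = 1.79e-18), and Arhgef37, P2rx1 and Fam107a by 4.06, 3.69 and 3.89. Slc25a34, in contrast, was at 25.8 ± 2.27 CPM in FSK3D and 26.1 ± 2.01 CPM in Rosi3D, a difference of 0.01 ± 0.13 (adjusted p = 0.955).

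Below FSK3D, Il1rl1 was at 1253, 1185 and 1063 CPM in FSK3D, above the 518 to 577 CPM of vehicle, and at 42.1 to 50.2 CPM in Rosi3D (-4.70 ± 0.091, adjusted p = 5.98e-17). Mb, myoglobin, was at 47.5 ± 5.70 CPM in FSK3D and 1.25 ± 0.331 in Rosi3D (-5.28 ± 0.23, adjusted p = 7.75e-13). Atp6v0d2 (-5.78) and Wfdc21 (-4.63) were also among the 6 largest; Atp6v0d2 had 2 counts in the Rosi3D libraries together, and without library S13 its value was -8.10. Ucp1 also was lower than in FSK3D, where it was at 4.24, 6.10 and 5.41 CPM (-2.57 ± 0.24, adjusted p = 7.99e-11), as was Pparg (-0.64 ± 0.071, adjusted p = 2.53e-07), at 295 ± 20.7 CPM in FSK3D.

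**Figure D5:**
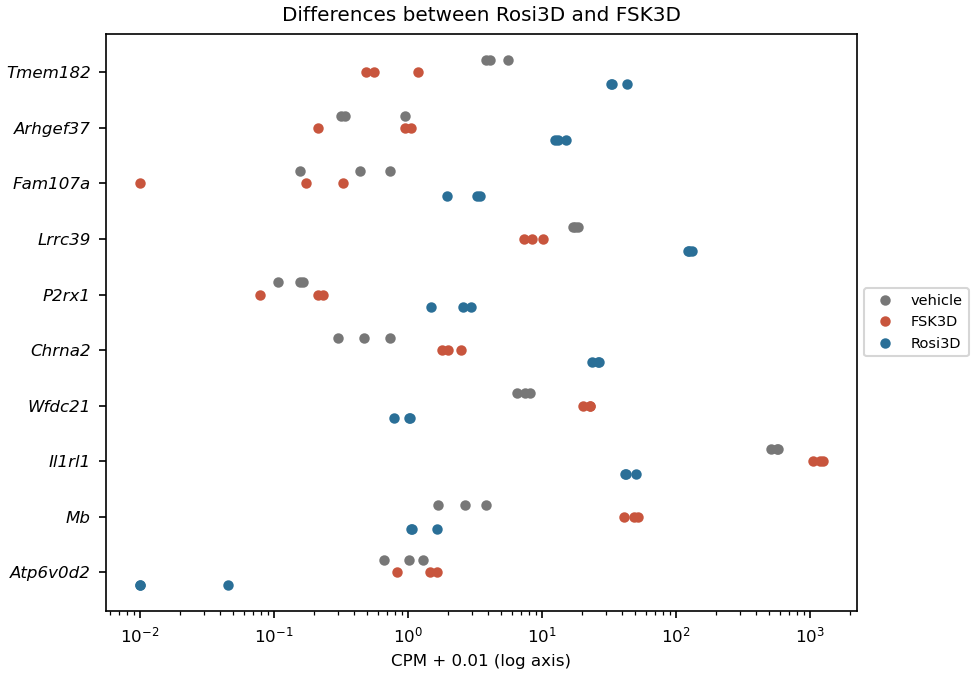
Genes among the largest differences between Rosi3D and FSK3D, 6 above and 4 below FSK3D; each point is a library, the horizontal axis is CPM plus 0.01 on a log scale, and colours give the group. Rosi3D points lie to the right of the others for the upper 6 genes (Tmem182 at 33.2 to 43.5 CPM) and to the left for the lower 4, where Il1rl1 is at 42.1 to 50.2 CPM in Rosi3D.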

How the data were processed

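RNA was measured in 15 libraries of MAP cells, 3 per group. Per the labels' protocols, total RNA was depleted of ribosomal RNA. Per the submitters' processing notes, fastp, STAR and featureCounts were used with GRCm38/mm10; versions and settings, strand use included, are not stated in the sources used. The deposited values are raw counts per gene. In every library more genes had a count of 2 than of 1, as when both mates of a pair are counted, so ratios of low counts used halved counts and exact binomial intervals, which cover counting error only. Gene length came from the same deposited table and is not a measurement.

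Groups came from the sample labels. Counts were tested with edgeR 4.0.16 in R 4.3.3 (filterByExpr by group, TMM, robust quasi-likelihood, 1 mean for each of the 5 groups, all 15 libraries, 10 residual degrees of freedom), with Benjamini-Hochberg adjustment over 14421 genes and calls at 0.05. CPM are scaled by TMM, and the SE is the log2 fold change divided by the square root of F. The named genes are the 12 largest rises and falls with at least 1 CPM in the higher group and no overlap between groups, up to 4 called members of each list in each direction, 6 differences from FSK3D in each direction, and a set of adipocyte genes; genes without a proper symbol were left out of the largest changes. Some genes that this rule names are not reported here. Members given as not called, as lowest or most abundant, or as common subunit forms were named after their values were seen, and so were Isca1, Pbld1 and Apol7b. The members and the 27 lists were chosen with earlier results of these data known. On simulated counts the comparison of Rosi3D with vehicle recovered 48 of 50 genes changed by 1.5-fold. The simulation changed few genes, none of them low, and gave all genes the same spread, unlike the data. It therefore checks the code and does not measure the error rate of the calls. Libraries of a group differed by more than sampling noise, so none was counted as a copy. Gene positions are from GENCODE vM21, which matched 23376 of 24421 symbols (95.7%). Alternatives included DESeq2 1.42.0, other scalings and filters, equal depth and each library left out.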

Additional observations from a re-analysis of the deposited data

How the results depend on the processing

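No gene called both in the reported fit and in an alternative changed direction, over the 18 alternatives run. Leaving out 1 library at a time gave 3921 to 4112 genes higher and 4115 to 4318 lower than vehicle, 939 to 1048 and 1025 to 1160 of them by at least 2-fold; against FSK3D the ranges were 2604 to 2938 higher and 2841 to 3076 lower. Scaling by library size alone gave 3845 higher and 4875 lower, DESeq2 4252 and 4451, and leaving out Rn45s 4147 and 4596. Small list counts moved by more than 1.5 times. The interferon-stimulated genes called higher numbered 14 with the 6 libraries alone, 20 with no filter on low counts and 2 to 9 with a library left out, and those called lower 2 with no filter. Mature adipocyte genes called lower numbered 1 with DESeq2, with a filter of 1 CPM in 3 libraries, with halved counts, with thinned libraries and with any of the 6 libraries left out. With a library left out, fatty acid synthesis genes called lower numbered 1 to 2, peroxisome genes 0 to 1 and PPAR and RXR partners 3 to 5. Ribosomal protein genes called higher numbered 1 with the 6 libraries alone, with no filter and with halved counts. The cause of these moves was not tested. Of 197 results for named genes 12 changed side of the threshold in some setting. No paired analysis was possible because the columns carry running library numbers and not the replicate numbers of the labels. At 7 counts in the vehicle libraries together, counting error alone left the count ratio of Ucp1 between 3.64 and 38.1. For Prdm16, the log2 fold change without vehicle library S2 was 2.31 (adjusted p = 0.00435). Without replicates known to be separate cultures, the spread may understate that between cultures.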
